A study of Mus musculus with 14 samples.

Results

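Glut_14 is a cluster of neuronal nuclei that were carried over when vascular fragments were enriched from mouse brain, and it is described here from the authors' cluster label and the UMI counts of its nuclei. Its members are the nuclei with that label, 916 of 31324 labelled brain nuclei, with 421 of 16649 in the control library and 495 of 14675 in the CKO library. The study asked how loss of TGF-beta signaling in endothelial cells (ECs) affects the vasculature of the retina and brain, and the brain vascular fragments were pelleted through Ficoll, frozen and used for snRNAseq with the PIPseq v4.0 PLUS kit. The CKO library came from *Cdh5CreER;Tgfbr1 CKO/-* mice (VEcadCreER in the labels) given 4-hydroxytamoxifen (4HT) between postnatal day 3 and 5, and the control library came from mice labelled WT, which the study calls phenotypically wild type. Each library pooled 2 brains at postnatal day 14, although the labels call the mice young adults. Usual alleles of control mice, with *Cdh5CreER* and a single conditional allele of either receptor gene, are named for retinas, while the sources used here do not state the alleles of the control brains, whether these mice received 4HT, or the sex of any of the brains. *Cdh5CreER* drives recombination in ECs, so that neurons of the CKO mice carry 1 unrecombined *Tgfbr1* allele and 1 null allele, and any difference in neurons is seen in mice whose ECs lack the receptor. A single library stood for each genotype, so neither a replicate error nor a test could be had, each difference compares these 2 libraries and not the genotypes, and all intervals are 95% intervals that cover counting error only. The libraries shared 2 of the 16-base barcodes, and neither belonged to a nucleus of Glut_14.

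Neurons that release GABA make it from glutamate with the glutamate decarboxylases encoded by *Gad1* and *Gad2* and load it into vesicles with the transporter encoded by *Slc32a1*. Neurons that release glutamate load it with vesicular transporters of the *Slc17* family. In the telencephalon, GABAergic interneurons are born in the ganglionic eminences, those of the medial eminence with the transcription factors Lhx6 and Sox6 and those of the caudal eminence with *Adarb2* and *Prox1*, and both kinds migrate into cortex and hippocampus, where they differ in peptides such as somatostatin and vasoactive intestinal peptide.

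Nuclei of Glut_14 made up 2.53% (2.30% to 2.78%, exact binomial) of the control library and 3.37% (3.09% to 3.68%) of the CKO library, a ratio of 1.33 (1.17 to 1.52). Among the nuclei of the 11 labels that start with Glut or GABA, the shares were 5.12% (4.65% to 5.61%) and 5.92% (5.42% to 6.44%), a ratio of 1.16 (1.01 to 1.32). Glut_5 alone went from 1858 control to 251 CKO nuclei, and without it, a choice made after seeing the data, the shares among the other Glut and GABA labels were 6.61% (6.01% to 7.25%) and 6.10% (5.59% to 6.64%), a ratio of 0.923 (0.809 to 1.05). The direction of the difference thus depended on the denominator. The median nucleus held 3562 UMIs (quartiles 1368 and 6377) and 1489 genes in the control library, against 2014 UMIs (1095.5 and 3254) and 1017 genes in the CKO library. The ratio of these medians was 0.565, and 18 of the other 20 labels, neuronal and not, also had the lower median in the CKO library, with ratios from 0.386 to 0.803, while ECs and microglia had ratios of 1.11 and 1.36. In all, 1820986 UMIs of the control library and 1250486 of the CKO library belonged to Glut_14, and levels are given as CPM, the UMIs of a gene scaled by these sums, with exact Poisson intervals. Shares of nuclei with a UMI depend on this depth, so they were also computed after each nucleus had been thinned to 1000 UMIs, which left out 77 control and 110 CKO nuclei.

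The genes of Glut_14 went against the glutamatergic part of its label. *Gad2* (ENSMUSG00000026787, chromosome 2, 22511862 to 22583886, forward strand, GRCm39) stood at 431 CPM (401 to 462) in the control library and 441 CPM (405 to 479.8) in the CKO library, and *Gad1* (ENSMUSG00000070880, chromosome 2, 70383416 to 70432372, forward strand) at 200.4 CPM (180.4 to 222) in the control library and 198 CPM (174 to 224) in the CKO library. Both decarboxylases had overlapping intervals in the 2 libraries. *Gad2* UMIs were found in 61.6% of the nuclei of Glut_14 (median depth 2530.5 UMIs), against 0.388% of ECs (1429 UMIs), 0.563% of oligodendrocytes (1314 UMIs) and 1.11% of Glut_0 (2878.5 UMIs). At 1000 UMIs per nucleus the *Gad2* shares were 33.1% of control and 36.6% of CKO nuclei, beside 0.204% and 0.106% of ECs, so that the signal lay far above free RNA. The vesicular transporter gene *Slc32a1*, with 31 and 15 UMIs, was at 17.0 and 12 CPM in the control and CKO libraries. Summed over the 4 genes of the fixed GABAergic list, the level was 969.8 CPM (925 to 1016) in the control library and 951 CPM (898 to 1006) in the CKO library, and pooled over both libraries the sum of 962 CPM was the second highest of the 21 labels, after the 2012 CPM of GABA_22.

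Of the vesicular glutamate transporter genes, *Slc17a7* and *Slc17a6* were low against labels that express them. *Slc17a7*, which serves most cortical excitatory neurons, had 20 and 12 UMIs in the control and CKO libraries and a pooled level of 10.4 CPM, 0.0956 times the mean of the other neuron labels. A *Slc17a7* UMI was seen in 2.73% of nuclei, against 35.3% in Glut_0. *Slc17a6*, the transporter of many subcortical neurons, was at 6.84 CPM, against 92.7 CPM in Glut_1. *Slc17a8* was at 10.1 CPM, rank 5 of 21, close to the 10.4 CPM of Glut_1 and above the 1.26 CPM of Glut_0 and 1.18 CPM of GABA_9, so it was not low against these labels, and *Slc32a1* was at 15.0 CPM. In both libraries *Gad1* and *Gad2* were above each of the 3 vesicular glutamate transporter genes.

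The region was read from fixed marker lists, and the list of telencephalic interneurons was 1 of 3 cell type lists that ranked in the top 2 labels. Its 12 genes summed to 10385 CPM (10238 to 10534) in the control library and 11295 CPM (11109 to 11483) in the CKO library, and the pooled sum of 10755 CPM was the second highest of the 21 labels, after 13039 CPM in GABA_22. *Adarb2*, an RNA-binding protein gene of the ADAR family, held 62.8% of that sum, so the members are given 1 by 1. Of the 12, 8 were at least 2-fold above the mean of the other 20 labels, 7 at least 2-fold above the mean of the other neuron labels, and 3 (*Lhx6*, *Vip* and *Dlx6os1*) were highest in Glut_14. *Lhx6* (ENSMUSG00000026890, chromosome 2, 35971964 to 35995601, reverse strand), which directs medial eminence interneurons, was at 42.8 CPM (33.9 to 53.5) in the control library and 52.8 CPM (40.8 to 67.1) in the CKO library, 43.9 times the mean of the other neuron labels. At 1000 UMIs per nucleus it was seen in 6.98% and 6.49% of control and CKO nuclei, beside 1.16% and 0.953% of ECs. *Dlx6os1* (ENSMUSG00000090063, chromosome 6, 6749740 to 6871632, reverse strand), a long noncoding RNA of the Dlx5 and Dlx6 locus that forebrain GABAergic neurons express, was at 333 CPM (307 to 360.4) in the control library and 250.3 CPM (223 to 279.6) in the CKO library, 12.5 times that mean. *Adarb2* (ENSMUSG00000052551, chromosome 13, 8252897 to 8818800, forward strand) reached 6429.5 CPM (6314 to 6547) in the control library and 7232 CPM (7084 to 7383) in the CKO library, in 48.3% of nuclei against 1.90% of ECs, 4.08 times the neuronal mean. The share of nuclei with *Adarb2* was close to that in Glut_1 (46.1%) and GABA_9 (47.1%), whose levels were 1240.4 and 884 CPM, and GABA_22 was above Glut_14 in both, at 84.1% and 10267 CPM. *Lhx6*, *Dlx6os1* and *Adarb2* belong to the program of telencephalic GABAergic neurons, and each was detected in both libraries.

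*Nxph1*, which encodes the neurexin ligand neurexophilin 1, was found in 82.4% of nuclei at 3365 and 3618 CPM in the control and CKO libraries. After thinning, its shares were 78.2% and 80.0%, beside 1.09% and 1.01% of ECs. *Dlx1*, a homeobox gene of the same lineage, was at 30.8 and 21.6 CPM, and *Dlx2* had 2 and 5 UMIs. The peptide genes marked smaller numbers of nuclei. *Sst*, for somatostatin (ENSMUSG00000004366, chromosome 16, 23707321 to 23711733, reverse strand), had a UMI in 11.8% of nuclei, and *Vip*, for vasoactive intestinal peptide (ENSMUSG00000019772, chromosome 10, 5589186 to 5599956, forward strand), in 6.33%, against 0.240% and 0.0369% of ECs. *Vip* was 16.4 times the mean of the other neuron labels, while *Sst* was 1.42 times it, since Glut_20 held 419.9 CPM. *Npy* stood at 25.7 CPM and *Lamp5* at 13.3 CPM. *Pvalb*, for the calcium-binding protein parvalbumin, was at 12.05 CPM, 0.0985 times the mean of the other neuron labels, and *Sp8* had 3 and 1 UMIs.

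**Figure D1:**
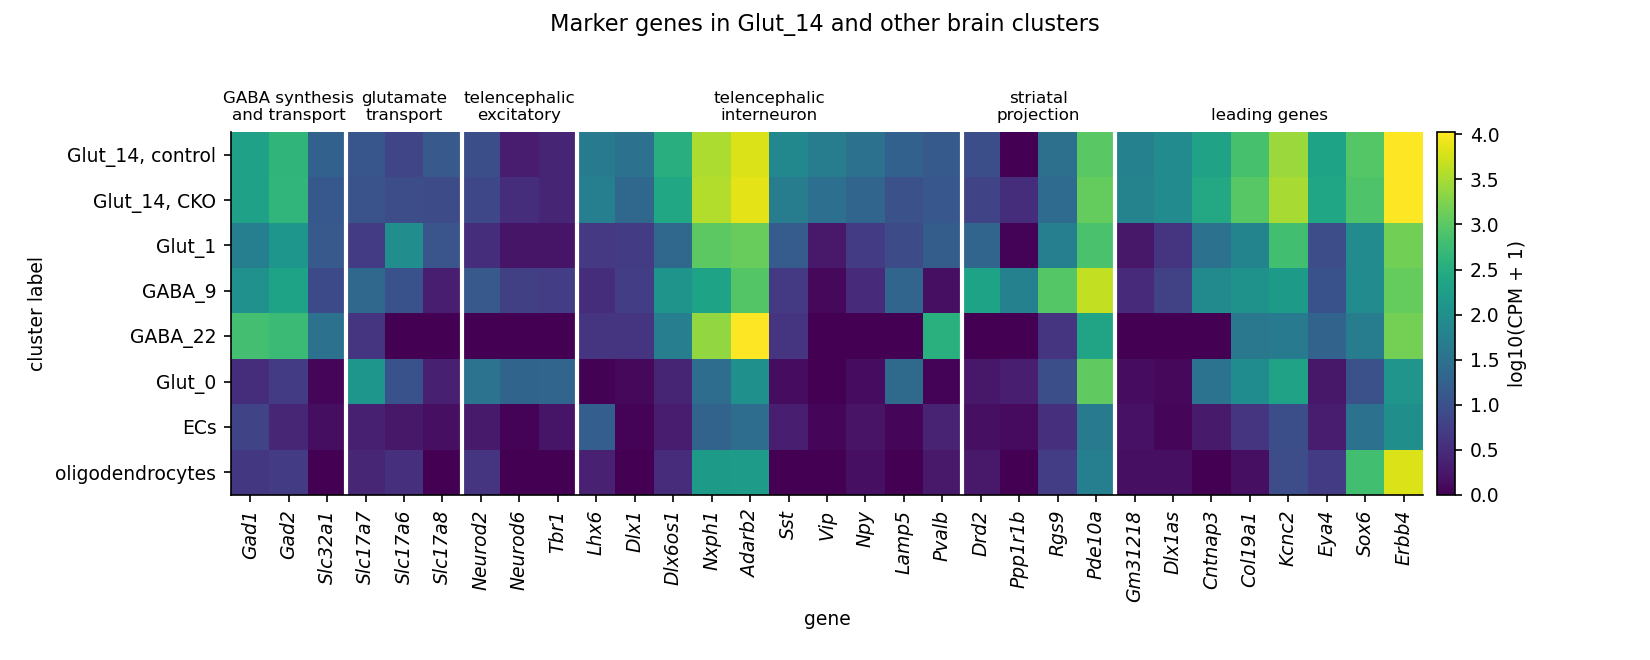
Level of marker genes in Glut_14 of each library and in 6 other brain labels with both libraries pooled, as log10(CPM + 1) on a color scale from dark (0) to yellow, with genes in columns grouped by list. *Gad1*, *Gad2*, *Dlx6os1*, *Nxph1* and *Adarb2* are above the 3 glutamate transporter genes in both Glut_14 lanes, while *Lamp5* and *Pvalb* are close to them.

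Of the 48 cell type lists, 3 had a pooled sum that ranked 1 or 2 of 21 in Glut_14, and 30 ranked 10 or lower. The third of the high lists, for Cajal-Retzius cells, drew 83.5% of its 1199 CPM from *Reln*, the gene of the secreted protein reelin that many interneurons also express, while the Cajal-Retzius transcription factor genes *Trp73*, *Lhx1* and *Lhx5* had 1, 4 and 1 UMIs in all. The telencephalic excitatory list summed to 242 CPM, of which *Camk2a* held 72.9%, and *Tbr1*, *Neurod6*, *Emx1* and *Bhlhe22* had 5, 5, 4 and 2 UMIs. The striatal projection list reached 1453 CPM in Glut_14 against 8836 CPM in GABA_9, with 72.9% of the former from *Pde10a*. *Drd1* and *Drd2*, the dopamine receptors of striatal projection neurons, were at 4.23 and 7.16 CPM, against 41.7 and 216 CPM in GABA_9. The Purkinje list stood at 2261 CPM against 56238 CPM in GABA_22, the cerebellar granule list at 362 CPM against 10386 CPM in Glut_5, and the thalamus list at 2164 CPM, rank 17 of 21. Hindbrain and hypothalamus lists summed to 2.93 and 8.14 CPM, with 8 of 14 and 8 of 13 genes at 0. Some lists of other regions ranked higher, among them cortex layer 6 IT and claustrum, at 721 CPM and rank 3, of which a single gene held 95.8%, and cortex layer 5 IT, at 2561 CPM and rank 4, of which a single gene held 54.7%. The list of cerebellar inhibitory interneurons also had rank 4, at 4387 CPM, with 79.0% from *Nxph1*, and it was highest in GABA_22, at 9146 CPM. GABA_22 thus led both this list and the telencephalic interneuron list. A high rank on the latter does not by itself place a label in the telencephalon. GABA_22 was above Glut_14 on the GABAergic and the telencephalic interneuron list, and 0 of the 4 GABAergic genes were highest in Glut_14.

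The neuron list summed to 32599 CPM, rank 5 of 21, led by the nuclear noncoding RNA *Meg3* with 52.9%. The neurofilament genes *Nefl* and *Nefm* had 3 and 12 UMIs. The 10 endothelial markers summed to 16.6 CPM, against 14647 CPM in ECs, and the 8 microglia markers to 20.3 CPM in the control and 18.4 CPM in the CKO library, with *Csf1r*, *Tmem119* and *C1qa* at 0. The oligodendrocyte list stood at 93.4 and 64.8 CPM, and *Opalin* and *Cnp* were at 0. The oligodendrocyte precursor list was at 552 and 531 CPM, with 84.4% of the pooled sum from a single gene. The astrocyte list was the most abundant of these at 953 and 701 CPM, with *Gpc5* its most abundant gene at 38.6% of the pooled sum.

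Ranked by the ratio of their pooled level to the mean of the other 20 labels, the 20 leading genes had ratios from 8.02 to 105, all 20 were highest in Glut_14 with the libraries pooled, and 13 were also among the 20 leading genes against neuron labels alone. In the control library alone 18 of the 20 were highest in Glut_14, and in the CKO library alone all 20 were. The cluster was made from these counts, so these values describe it and test nothing. The highest ratio was that of the noncoding RNA *Gm31218*, at 58.8 and 62.4 CPM in the control and CKO libraries, 105 times the mean of the other labels. *Dlx1as* (ENSMUSG00000084946, chromosome 2, 71346798 to 71369624, reverse strand) came next at 86.2 and 85.6 CPM, 55.1 times that mean, and it overlaps *Dlx1* on the opposite strand, so the UMIs of the pair may not be fully separated. Potassium channel subunit genes among the leading 20 included *Kcnc2*, *Kcnmb2* and *Kcns3*. *Kcnc2* (ENSMUSG00000035681, chromosome 10, 112105226 to 112302929, forward strand), which encodes a Kv3 potassium channel subunit that repolarizes fast-firing neurons, stood at 2657 CPM (2583 to 2733) in the control library and 3179 CPM (3081 to 3279) in the CKO library, in 82.4% of nuclei against 56.5% of Glut_1, 17.5% of GABA_9 and 0.683% of ECs, and 13.7 times the mean of the other labels. *Kcnmb2*, an auxiliary subunit of the BK channel, was at 997 and 1041 CPM, and *Kcns3*, a silent subunit that modifies other potassium channels, at 56.0 and 47.2 CPM.

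*Grip1*, a scaffold that binds AMPA receptors, was found in 98.7% of nuclei (86.3% of Glut_1, 80.0% of GABA_9 and 2.49% of ECs) at 4847 and 6079 CPM, and *Elfn1*, a postsynaptic adhesion protein that sets release at excitatory inputs to interneurons, in 21.3% (0.0554% of ECs) at 97.2 and 131 CPM. *Cntnap3*, of the contactin-associated protein family, was 17.7 times the mean of the other labels, and *Col19a1*, a collagen that neurons secrete, 17.5 times it. *Oprd1*, the gene of the delta opioid receptor, had a pooled level of 42.7 CPM in 11.5% of nuclei, against 0.0554% of ECs. *Galntl6*, of the glycosyltransferase family that starts O-linked chains, was among the most abundant at 6277 and 8026 CPM. Against neuron labels alone the list also took in *Sox6* (ENSMUSG00000051910, chromosome 7, 115070106 to 115638860, reverse strand), at 912 CPM (869 to 957) in the control library and 836 CPM (786 to 888) in the CKO library and 23.1 times the neuronal mean, and *Maf*, at 12.8 times, both transcription factor genes of medial eminence interneurons. *Erbb4* (ENSMUSG00000062209, chromosome 1, 68071345 to 69147619, reverse strand), the neuregulin receptor of interneurons, was in 94.0% of nuclei (60.1% of Glut_1, 49.9% of GABA_9 and 6.83% of ECs) at 10307 CPM (10160.1 to 10456) in the control library and 10593 CPM (10413 to 10775) in the CKO library, 10.7 times the neuronal mean, although oligodendrocytes also held 6575 CPM. *Eya4*, a transcriptional coactivator gene, was 42.2 times the mean of the other neuron labels at 217 and 230.3 CPM.

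Among the genes on the fixed lists of receptors and channels, the kainate receptor gene *Grik1* was highest in Glut_14 of all 21 labels, at 1976 and 2266 CPM in the control and CKO libraries and 4.79 times the mean of the other neuron labels. *Neto1*, which encodes an auxiliary subunit of kainate receptors, was 2.40 times that mean. The AMPA receptor gene *Gria1* was at 2599.7 and 2924 CPM, 2.64 times the neuronal mean, and the NMDA receptor genes *Grin3a* and *Grin2d* were 3.05 and 2.06 times it. *Gabrg3*, a GABA-A receptor subunit gene, stood at 2246 and 2405 CPM, 3.14 times the neuronal mean. Of the TRP channels, *Trpc6* was 4.61 times and *Trpc4* 3.07 times the neuronal mean, and the sodium channel gene *Scn1a* 1.58 times. The cadherin genes *Cdh9* and *Cdh13* were at 410.2 and 903 CPM pooled, 2.87 and 2.16 times the neuronal mean. Of the axon guidance genes, the Slit receptor gene *Robo2* was highest in Glut_14 at 1455 CPM, a level just above the 1453 CPM of GABA_9, and its ligand gene *Slit2* was 2.58 times the neuronal mean. Low genes included *Rora*, a nuclear receptor gene of thalamus and cerebellum, at 0.236 times the mean of the other neuron labels.

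By Pearson correlation of log2(CPM + 10) over 16973 genes, with both libraries pooled, the labels nearest to Glut_14 were Glut_1 (r = 0.965) and GABA_9 (r = 0.947). The genes are not independent and share the same libraries, so these values only choose what to compare. Both neighbors carried *Gad2*, at 131 CPM in Glut_1 and 214 CPM in GABA_9, below the 435 CPM of Glut_14. Glut_1 differed by its *Slc17a6*, at 92.7 CPM, and GABA_9 by the striatal genes *Rgs9* and *Pde10a*, at 904 and 4539 CPM against 27.7 and 1058 CPM in Glut_14. *Sox6* was at 86.6 and 85.0 CPM in Glut_1 and GABA_9, and *Lhx6* at 3.70 and 2.36 CPM, both below the levels in Glut_14.

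The nuclei of Glut_14 were not alike. Clustering them on their own gave 9 sub-clusters, a number that depends on the chosen resolution (5 at a Leiden resolution of 0.25 and 11 at 1), and they are called here by their leading genes and not named as cell types. The largest, led by *6330411D24Rik* with *Cemip*, *Slit2*, *Eya4* and *Dock4*, held 274 nuclei, 29.5% (25.1% to 34.1%) of control and 30.3% (26.3% to 34.6%) of CKO nuclei. It had the highest *Kcnc2* of the 9, at 5839 CPM, with *Erbb4* at 17363 CPM, *Lhx6* at 82.1 CPM and *Pvalb* at 31.2 CPM. *Slit2*, the secreted guidance cue, was found in 74.5% of its nuclei and 23.5% of the rest. A sub-cluster of 120 nuclei led by *Man1a*, *Sst*, *Pcsk5*, *Tox* and *Grik3* had *Sst* in 35.8% of its nuclei and 8.17% of the rest, at 255 CPM. Its *Grin3a* level was 1864 CPM and its *Sox6* level 1664 CPM, the highest *Sox6* of the 9. A sub-cluster of 85 nuclei led by *Lypd6*, *Trhde*, *Lypd6b*, *Gm28175* and *Mgat4c* also held *Sst*, at 273 CPM, with *Grin3a* at 2092 CPM and *Reln* at 1708 CPM. Somatostatin transcripts thus sat mainly in the *Man1a* and *Lypd6* sub-clusters, which shared the high *Grin3a*, a gene for an NMDA receptor subunit that lowers calcium entry.

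Another 3 sub-clusters carried high *Adarb2* and no *Lhx6* UMI. The sub-cluster led by *Vip*, *Dlx1*, *Prox1*, *Sorcs3* and *Sorcs1* held 79 nuclei, 7.13% (4.86% to 10.0%) of control and 9.90% (7.41% to 12.9%) of CKO nuclei. *Vip* was in 51.9% of its nuclei and 2.03% of the rest, and its level of 574 CPM was 61.8 times that of the rest. *Prox1*, the homeobox gene of caudal eminence interneurons, was at 435 CPM there, and 3 of its 10 leading genes were on the telencephalic interneuron list. The sub-cluster led by *Ndnf*, *Sv2c*, *Atp6ap1l*, *Crispld1* and *Kit* held 75 nuclei, with *Ndnf*, a gene for a secreted neurotrophic factor, in 37.3% of its nuclei and 1.55% of the rest. Its *Reln* level of 4687 CPM was the highest of the 9, its *Lamp5* level was 109.8 CPM and its *Gad2* level 1476 CPM. The sub-cluster led by *Frem1*, *Megf10*, *Cnr1*, *Col14a1* and *Scml4* held 71 nuclei, with *Cnr1*, the gene of the cannabinoid receptor that acts on GABA release, in 81.7% of its nuclei and 17.0% of the rest. It also held the highest level of the vesicular glutamate transporter gene *Slc17a8*, 103 CPM, beside *Gad2* at 288 CPM and *Adarb2* at 36852 CPM. *Adarb2* was at 33976 CPM in the *Vip* and 16158 CPM in the *Ndnf* sub-cluster.

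The second largest sub-cluster held 186 nuclei. It was led by *Tafa1*, *Sv2b*, *Arpp21*, *Cpd* and *Ddx5*, and *Tafa1*, which encodes a secreted neurokine, was in 52.7% of its nuclei and 7.40% of the rest. The telencephalic excitatory list summed to 410.1 CPM (370 to 453) there, the highest of the 9. The sums of the *Hs3st2* and *Vip* sub-clusters were 395 CPM (221 to 651) and 369 CPM (282 to 474). These intervals overlap, so the sum does not set the *Tafa1* sub-cluster apart. Its *Slc17a7* level was 29.0 CPM. In the other sub-clusters *Slc17a7* was at most 5.78 CPM. *Gad2* was still present at 252 CPM, the lowest of the 9, and *Adarb2* at 2676 CPM. These nuclei were also the deepest, with a pooled median of 3911 UMIs, and their medians in the control and CKO libraries were 3895 and 3936 UMIs. The authors had removed doublets and mixed nuclei before deposit, and whether nuclei of other types remained in this sub-cluster was not tested. The 2 smallest sub-clusters had 13 nuclei each, 1 led by *Unc5c* and *Pde11a* with *Gad2* at 1623 CPM and 1 led by *Hs3st2* and *Il1rapl2* with *Nxph1* at 13572 CPM.

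**Figure D2:**
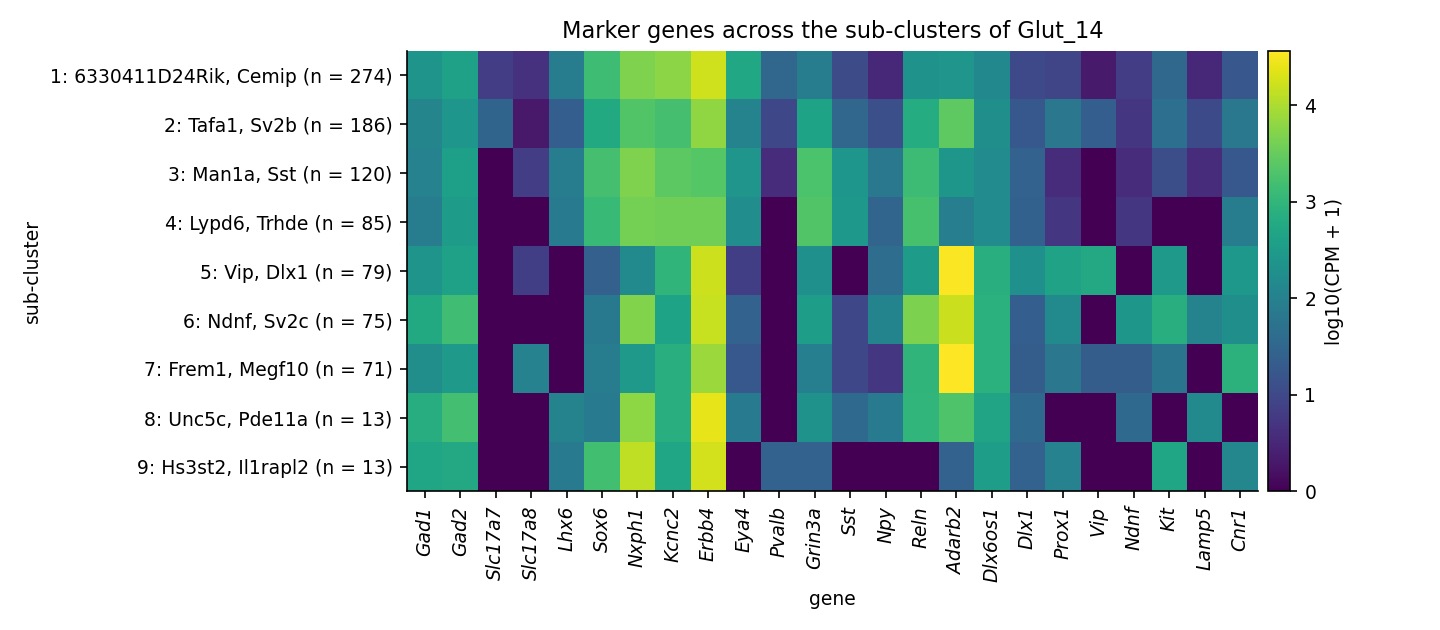
Level of marker genes in the 9 sub-clusters of Glut_14 with both libraries pooled, as log10(CPM + 1) on a color scale from dark (0) to yellow, with the number of nuclei beside each name. *Lhx6* is at 0 in the 3 sub-clusters where *Adarb2* is highest, and the sub-cluster led by *Tafa1* carries *Slc17a7*.

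The split between *Adarb2* and *Lhx6* was also visible nucleus by nucleus, in a comparison chosen after the levels had been seen. Of the 916 nuclei, 280 had at least 10 *Adarb2* UMIs, 130 control and 150 CKO nuclei, and 4 of the 280 (1 control and 3 CKO) had an *Lhx6* UMI, while 43 had a *Sox6* UMI. Of the 127 nuclei with an *Lhx6* UMI, 113 had a *Sox6* UMI, 64 of 68 control and 49 of 59 CKO nuclei. A UMI of both *Adarb2* and *Lhx6* was found in 31 nuclei, and 378 had neither, of which 158 were control and 220 CKO nuclei. At these depths a nucleus with neither UMI may still have expressed either gene.

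The sub-clusters were present in both libraries. The *Tafa1* sub-cluster took 24.0% (20.0% to 28.4%) of control and 17.2% (13.95% to 20.8%) of CKO nuclei, a ratio of 0.716 (0.530 to 0.965), which was the 1 interval of 9 that left out 1. The *6330411D24Rik*, *Man1a*, *Vip* and *Frem1* sub-clusters had ratios of 1.03 (0.806 to 1.32), 0.972 (0.668 to 1.42), 1.39 (0.864 to 2.27) and 1.31 (0.793 to 2.18). Those of the *Lypd6* and *Ndnf* sub-clusters were 1.56 (0.982 to 2.52) and 0.705 (0.434 to 1.14), so shifts of these sizes were within counting error. Grouped after the values had been seen, the 3 sub-clusters with *Lhx6* and low *Adarb2* (led by *6330411D24Rik*, *Man1a* and *Lypd6*) held 210 of 421 control nuclei, 49.9% (45.0% to 54.8%), and 269 of 495 CKO nuclei, 54.3% (49.8% to 58.8%). The 3 with high *Adarb2* (led by *Vip*, *Ndnf* and *Frem1*) held 99 control nuclei, 23.5% (19.5% to 27.9%), and 126 CKO nuclei, 25.5% (21.7% to 29.5%). Of the 7 sub-clusters with over 20 nuclei in each library, 6 had the lower median UMIs in the CKO library, and the *Tafa1* sub-cluster did not.

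**Figure D3:**
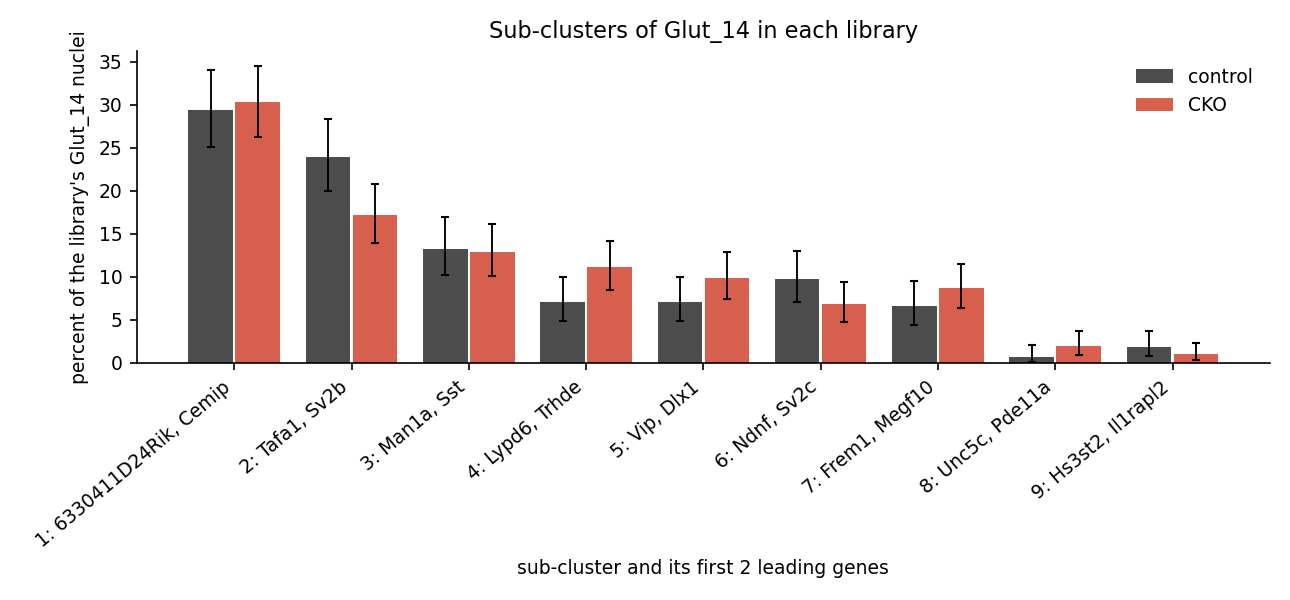
Percent of the Glut_14 nuclei of each library in each sub-cluster (bars, control gray and CKO red), with exact binomial 95% intervals as error bars. The intervals of the 2 libraries overlap in each sub-cluster, the *Tafa1* sub-cluster included.

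Control and CKO nuclei of Glut_14 were then compared on UMIs summed over its nuclei in each library. Among 6987 genes with at least 30 UMIs, 162 (2.32%) were at least 2-fold higher and 294 (4.21%) at least 2-fold lower in the CKO library, and the median log2 ratio was -0.00. With the mean of per-nucleus CPM over the same genes these numbers were 426 and 544, so the 2.32% and 4.21% set beside the lists below hold for summed UMIs only. The interval of the ratio, by the exact conditional binomial, left out 1 for 157 of the 162 and 265 of the 294. Most of these genes had few UMIs, with a median of 46 against 128 for the genes within 2-fold. Of 1795 genes with 30 or more and under 60 UMIs, 17.5% were past 2-fold, and of 1651 genes with at least 300 UMIs, 0.363% were, which is 6 genes. The 2.32% and 4.21% are not matched to the UMIs of the list genes below. In the nearest labels, 173 of 10846 genes (1.60%) were at least 2-fold higher and 1069 (9.86%) lower in the CKO nuclei of Glut_1, and 191 of 7758 genes (2.46%) were higher and 338 (4.36%) lower in those of GABA_9. On summed UMIs, well-counted genes of Glut_14 were therefore mostly within 2-fold between these 2 libraries.

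**Figure D4:**
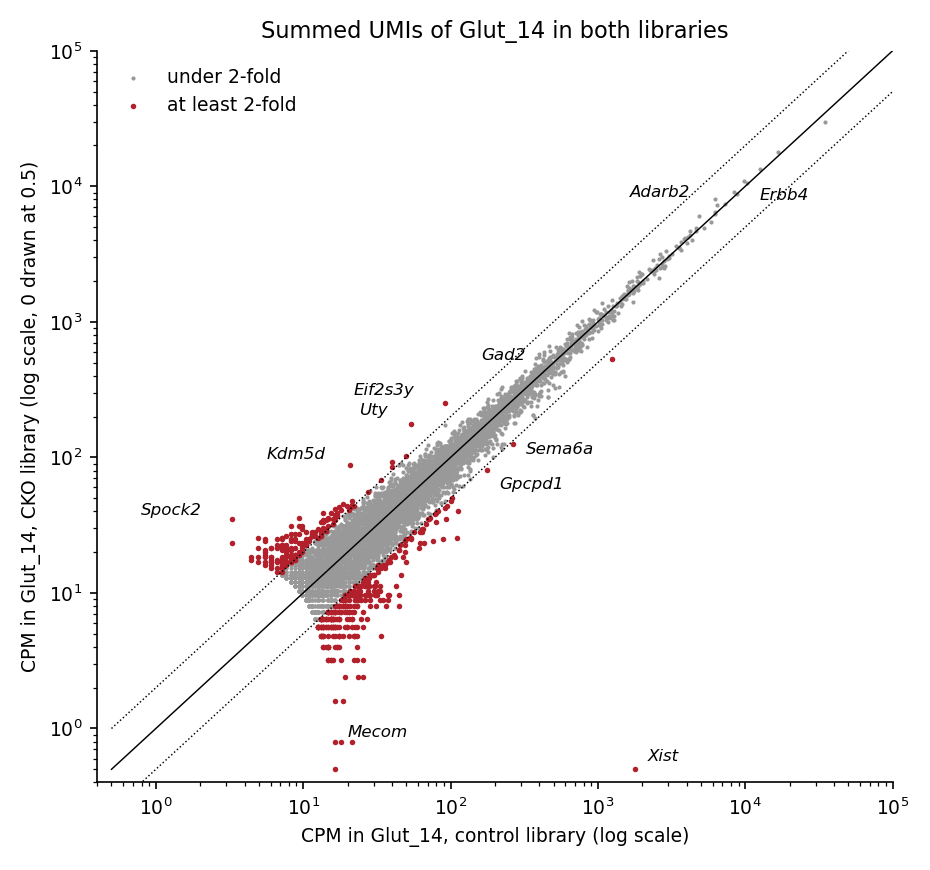
Level of each gene with at least 30 UMIs in Glut_14 of the control library (x axis) and the CKO library (y axis), in CPM on log scales with 0 drawn at 0.5, with equality as a solid line and 2-fold as dotted lines. Points at least 2-fold apart (red) gather among genes of low level, and *Xist* lies far below the line.

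Of the 6 genes with at least 300 UMIs past 2-fold, 3 are sex-linked. *Xist* (ENSMUSG00000086503, chromosome X, 102503972 to 102537573, reverse strand), the RNA that silences an X chromosome in females, had 3261 control UMIs, or 1791 CPM, and 0 CKO UMIs, which is at least 746-fold lower against a floor of 3 UMIs over the cluster. It was seen in 64.6% of control nuclei (57.6% at 1000 UMIs per nucleus) and in 0 of 495 CKO nuclei. By the floor of 3 counts, this allows up to 0.606% of CKO nuclei with a *Xist* UMI. At 1000 UMIs per nucleus, 0 of 385 CKO nuclei had a *Xist* UMI. The share of nuclei that express it was not estimated. *Tsix*, which overlaps *Xist* on the opposite strand, had 34 and 2 UMIs, a ratio of 0.0857 (0.00997 to 0.334). The Y-linked genes *Eif2s3y*, *Uty* and *Kdm5d* were at 91.7 and 250.3 CPM, 53.8 and 178 CPM and 20.9 and 87.2 CPM, with ratios of 2.73 (2.25 to 3.31), 3.299 (2.59 to 4.23) and 4.18 (2.86 to 6.21), and *Ddx3y* had 2 and 15 UMIs. In Glut_14, Y-linked UMIs were thus found in both libraries and those of *Xist* in the control library alone, although 0.0679% of CKO ECs had a *Xist* UMI, and the sex of the brains and the genotype cannot be told apart here. The other 3 genes were ENSMUSG00000095041, with 2260 and 668 UMIs and a ratio of 0.430 (0.394 to 0.469), *Gpcpd1*, a glycerophosphocholine phosphodiesterase gene, with 322 and 101 UMIs and a ratio of 0.457 (0.362 to 0.573), and *Sema6a*. The first 2 of these fall outside the rule for named genes and were picked by their UMIs after the values had been seen. *Sema6a*, which encodes a semaphorin that guides axons, was at 265 and 126 CPM, a ratio of 0.473 (0.393 to 0.568), and in Glut_1 its ratio was 0.577 and in GABA_9 0.671.

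The 10 highest ratios with an interval that left out 1 ran from 3.85 to 10.7. *Spock2*, which encodes a proteoglycan of the extracellular matrix, had 6 control and 44 CKO UMIs, a ratio of 10.7 (4.53 to 30.7), with ratios of 2.54 in Glut_1 and 3.42 in GABA_9, and ECs held the highest level of the 21 labels, 1586 CPM. *Otx2os1*, a noncoding RNA next to *Otx2*, had 6 and 29 UMIs, of which 7 came from 1 CKO nucleus, and its ratio of 7.04 (2.87 to 20.7) stood beside 0.999 in Glut_1 and 1.45 in GABA_9. It was highest in the choroid plexus label CP_8, at 2182 CPM, and the choroid plexus list was at 132 and 177 CPM in control and CKO Glut_14, with 87.9% of the pooled sum from a single gene, *Kl*, *Folr1* and *Aqp1* at 0 and a part that was not tested. *Tmem150a*, a membrane protein gene, had 9 and 32 UMIs, and the other 7 were *Pomgnt1*, *Ercc5*, *Pip5k1c*, *Sp2*, *Kdm5d*, *Alas1* and *Zfp598*, with 62 UMIs or fewer each apart from *Kdm5d*. None of the 9 genes other than *Kdm5d* reached 100 UMIs, and they share no fixed list.

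The 10 lowest included *Gask1b*, *Xist*, *Mecom*, *Tsix*, *Msrb3* and *Cald1*. *Gask1b* had 30 control and 0 CKO UMIs, at least 6.87-fold lower against the floor of 3 UMIs, and it had 22 and 0 UMIs in Glut_1 and 31 and 1 in GABA_9. *Msrb3*, a methionine sulfoxide reductase gene, had 46 and 3 UMIs, a ratio of 0.0950 (0.0189 to 0.295), with 0.0832 in Glut_1 and 0.179 in GABA_9. Several of these genes were far more abundant in vascular labels than in Glut_14. *Cald1*, a gene of the contractile cytoskeleton, was highest in pericytes, at 6127 CPM, and had 43 and 3 UMIs in control and CKO Glut_14. *Mecom*, an endothelial transcription factor gene, had 30 control UMIs, 8 of them in 1 nucleus, and 1 CKO UMI, a ratio of 0.0485 (0.00119 to 0.292). With the mean of per-nucleus CPM its ratio was 0.214, and among nuclei with at least 1000 UMIs it was 0. The whole endothelial list had 50 UMIs in 11 control nuclei and 1 in 1 CKO nucleus, with 9 of 10 genes detected in the control library, *Mecom* alone in the CKO library and *Erg* at 0 in both, and sums of 27.5 and 0.800 CPM. The pericyte list had 36 UMIs in 11 control nuclei and 1 in 1 CKO nucleus, or 19.8 and 0.800 CPM, with *Kcnj8*, *Vtn* and *Higd1b* at 0. The fibroblast list was at 25.3 and 6.40 CPM with *Dcn*, *Lum* and *Col1a2* at 0, and the astrocyte list at 953 and 701 CPM, a ratio of 0.735 (0.677 to 0.798). The median log2 ratio of 5 astrocyte markers with at least 30 UMIs was -0.76. Without the *Tafa1* sub-cluster it was -0.09, over the astrocyte markers that still had at least 30 UMIs, which may be fewer. The part of such markers in the lower levels of CKO Glut_14 was not tested.

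The GABAergic sums given above had a ratio of 0.980 (0.910 to 1.06), and *Gad1* and *Gad2* had ratios of 0.985 (0.835 to 1.16) and 1.02 (0.917 to 1.14). Of the telencephalic interneuron genes, 10 had at least 30 UMIs and 0 were past 2-fold, beside 2.32% higher and 4.21% lower of all genes, so 0 of 10 is near the background and is not a result about these genes. The ratio of the sums was 1.09 (1.06 to 1.11), while the median log2 ratio of the 10 was -0.46, of the opposite sign. *Adarb2*, which dominates the sum, had a ratio of 1.12 (1.09 to 1.16), which was 1.03 among nuclei with at least 1000 UMIs, 1.28 with the mean of per-nucleus CPM and 1.20 without the *Tafa1* sub-cluster. *Dlx6os1* was lower in the CKO library, with a ratio of 0.752 (0.654 to 0.864). Of the peptide genes, *Sst* had 136 and 60 UMIs and a ratio of 0.642 (0.466 to 0.877). *Vip* had 87 and 35 UMIs and a ratio of 0.586 (0.384 to 0.877). Among nuclei with at least 1000 UMIs the *Vip* ratio was 0.464, past 2-fold, while with the mean of per-nucleus CPM it was 0.816. *Npy* had 55 and 24 UMIs, with an interval that held 1 (0.635 (0.376 to 1.04)). Over the whole neuropeptide list, 4 of 23 genes had at least 30 UMIs, 0 were past 2-fold, and the sums were 185 CPM (166 to 206) in the control library and 131 CPM (112 to 153) in the CKO library, a ratio of 0.709 (0.584 to 0.857). *Lhx6* and *Sox6* had ratios of 1.23 (0.874 to 1.73) and 0.916 (0.847 to 0.990), *Kcnc2* of 1.20 (1.15 to 1.25) and *Erbb4* of 1.03 (1.01 to 1.05).

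Of all genes on the fixed lists, 300 had at least 30 UMIs, and 4 (1.33%) were at least 2-fold higher and 22 (7.33%) at least 2-fold lower in the CKO library. Leaving out the sex-linked list, these numbers were 1 of 295 (0.339%), *Gnb4* with 15 and 22 UMIs, and 20 of 295 (6.78%), beside the 2.32% and 4.21% of all genes. Of the 25 pathway lists with a member of at least 30 UMIs, 17 had none past 2-fold, several with few members. No gene was past 2-fold among 8 AMPA receptor genes, whose summed ratio was 1.06 (1.03 to 1.09), 6 NMDA receptor genes (0.996 (0.960 to 1.03)), 9 kainate and delta receptor genes (1.08 (1.05 to 1.11)) and 13 GABA-A receptor genes (0.977 (0.947 to 1.01)). The same held for 8 sodium channel genes (0.916 (0.862 to 0.973)) and 11 calcium channel genes (0.9501 (0.919 to 0.983)). Beside 2.32% and 4.21% of all genes, counts of 0 in lists of this size are near the background and are not a result about these lists. Of 19 voltage-gated potassium channel genes, 2 were lower, among them *Kcna4* with 36 and 7 UMIs, and the summed ratio was 1.02 (1.00 to 1.03). The summed ratios of these 7 lists thus lay between 0.916 and 1.08.

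Transcription factors of brain regions were compared next, and a difference of the list as a whole was not tested. Of 25 such genes with at least 30 UMIs, 0 were past 2-fold higher and 5 lower, beside 2.32% higher and 4.21% lower of all genes. These shares are not matched by UMIs. Of genes with 30 or more and under 60 UMIs, 17.5% were past 2-fold in either direction, and with 60 or more and under 100, 6.91%. The median log2 ratio of the 25 was -0.38 against -0.00 over all genes, and the sums were 4607 CPM (4509 to 4707) in the control library and 3903 CPM (3794 to 4014) in the CKO library. The median was below 0 with TMM factors, with nuclei of at least 1000 UMIs and without the *Tafa1* sub-cluster as well, at -0.39, -0.35 and -0.54. With nuclei left out, the median covers the genes that still had at least 30 UMIs, which may be fewer. Among the 5 were *Neurod1*, *Etv1* and *Prox1*. *Etv1*, an ETS factor gene that is highest in Glut_5, had 206 and 50 UMIs, a ratio of 0.353 (0.254 to 0.483), and its ratios were 0.317 in Glut_1 and 1.00 in GABA_9. *Neurod1*, a basic helix-loop-helix factor gene of granule cells, had 60 and 13 UMIs, a ratio of 0.316 (0.159 to 0.581). *Prox1* had 144 and 49 UMIs (0.496 (0.351 to 0.690)), and in the *Vip* sub-cluster its level was 556 CPM in the control and 247 CPM in the CKO library. *Etv1*, *Neurod1* and *Zic4* are also on the cerebellar granule list, which summed to 449 CPM (418 to 481) in the control library and 235 CPM (209 to 264) in the CKO library, a ratio of 0.524 (0.457 to 0.599), with 0 higher and 3 lower of 8 genes past 2-fold beside 2.32% higher and 4.21% lower of all genes, and its part in these values was not tested.

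Since ECs lack TGF-beta signaling in the CKO mice, the cues that neurons send to vessels were listed as well. Of 15 such genes, 7 had at least 30 UMIs, 0 were past 2-fold higher and 3 lower in the CKO library, beside 2.32% higher and 4.21% lower of all genes. The median log2 ratio was -0.56. With TMM factors, with nuclei of at least 1000 UMIs and without the *Tafa1* sub-cluster it was -0.57, -0.56 and -0.60. Where nuclei were left out, only genes that still had at least 30 UMIs entered the median, which may be fewer. *Vegfa* (ENSMUSG00000023951, chromosome 17, 46327919 to 46343309, reverse strand), the main growth factor of blood vessels, had 55 and 14 UMIs, or 30.2 CPM (22.8 to 39.3) in the control library and 11.2 CPM (6.12 to 18.8) in the CKO library, a ratio of 0.371 (0.190 to 0.676). *Vegfc*, its lymphatic and endothelial relative, had 60 and 11 UMIs, a ratio of 0.267 (0.127 to 0.513), and *Efnb2*, the ligand of EphB4, had 65 and 20 UMIs, a ratio of 0.448 (0.257 to 0.749). All 3 were lower in the CKO nuclei, and all 3 had 60 or more and under 100 UMIs over both libraries, a range in which 6.91% of 1317 genes were past 2-fold in either direction. Their ratios were 0.727 in Glut_1 and 1.02 in GABA_9 for *Vegfa*, 0.663 in Glut_1 and 1.02 in GABA_9 for *Vegfc* and 0.541 in Glut_1 and 0.869 in GABA_9 for *Efnb2*. *Reln*, the most abundant gene of the list, had a ratio of 0.909 (0.845 to 0.978), and the sums of the list were 1432 and 1248 CPM. These 3 genes are also expressed by other cells, *Vegfa* most in astrocytes (388 CPM) and *Vegfc* and *Efnb2* most in vSMCs (273 and 176 CPM), and the smooth muscle list was at 8.24 and 4.00 CPM in Glut_14, with 4 of 6 genes, *Myh11* and *Tagln* among them, at 0. The astrocyte list was lower in the CKO library as well, with the ratio of 0.735 given above, as were the endothelial and pericyte lists. The part of these lists in the lower levels of the 3 genes was not tested.

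The targeted gene itself was close to the limit of detection in Glut_14. *Tgfbr1* (ENSMUSG00000007613, chromosome 4, 47353134 to 47414931, forward strand) had 20 UMIs in 3.80% of control nuclei and 4 in 0.808% of CKO nuclei, a ratio of 0.291 (0.0724 to 0.869). At 1000 UMIs per nucleus the shares were 1.16% and 0.519%, beside 6.73% and 5.88% of ECs. ECs are the targeted cells and had the higher shares, so they give no background share for this gene. Whether the *Tgfbr1* UMIs of Glut_14 came from free RNA was not tested. Its co-receptor gene *Tgfbr2* had 0 UMIs in both, which allows up to 1.65 and 2.40 CPM. UMIs of a gene deleted in part can still be counted outside the deleted exons, so *Tgfbr1* does not check the genotype in these nuclei. Of the 35 genes of the TGF-beta and BMP pathway, 14 had at least 30 UMIs and 0 were past 2-fold, near the background of 2.32% higher and 4.21% lower of all genes and thus not a result about the list, with a median log2 ratio of -0.11 and sums of 622 CPM (586 to 659.5) in the control library and 572 CPM (531 to 615) in the CKO library. Genes of hypoxia and glycolysis had 0 higher and 1 lower of 8 past 2-fold, beside 2.32% higher and 4.21% lower of all genes, the 1 being *Vegfa*, and sums of 472 and 487 CPM. The interferon response list, with 47 and 16 UMIs over 16 genes of which 11 were at 0, was at 25.8 and 12.8 CPM, a ratio of 0.496 (0.262 to 0.890). Immediate early genes, which neurons switch on with activity, summed to 166 and 127 CPM. Of 19 such genes, 2 had at least 30 UMIs, 0 were past 2-fold higher and 1 lower, beside 2.32% and 4.21% of all genes. The 1 was *Nr4a1*, with 32 and 6 UMIs and a ratio of 0.273 (0.0933 to 0.662).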

How the data were processed

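The brain nuclei of 2 libraries, 1 CKO and 1 control, were used. The deposited matrix holds the UMI counts of 26528 genes in 31324 nuclei that the authors made with PIPseeker on GRCm39, according to the study's methods, whereas the labels list mm10, and from which they removed background with CellBender and doublets with SOLO and by hand. The clusters and their names are those deposited by the authors, and the settings of their clustering are not stated. Gene positions were taken from the GENCODE annotation on GRCm39 by symbol.

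Library was read from the barcode suffix, and members were the nuclei labelled Glut_14, with a total of 80831698 UMIs over all nuclei. UMIs were summed per gene over the members of each library and divided by the library's sum over Glut_14 (CPM). Ratios of the CKO to the control library were computed for genes with at least 30 UMIs over both. The ratio of *Tgfbr1*, the targeted gene, is an exception, since it had fewer UMIs. Intervals were exact conditional binomial for ratios, Poisson for levels and Clopper-Pearson for shares, all at 95%. With 1 library per arm no test between genotypes was run, and genes were counted past 2-fold by size alone. Floors are 3 counts over the cluster. Other columns of per-sample values used: 0.

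The cluster and the 48 cell type and 26 pathway lists were chosen with earlier results of these data known, and 661 of the 662 list genes were in the matrix. Named genes were all list genes, the 20 leading genes by the ratio to the mean of the other labels, overall and among neuron labels (at least 30 UMIs and a UMI in at least 10% of nuclei), the 10 highest and 10 lowest CKO to control ratios whose interval left out 1, *Tgfbr1*, *Tgfbr2* and sex-linked genes, and the 5 leading genes of each sub-cluster with a UMI in at least 25% of its nuclei. Nearest labels were ranked by Pearson correlation of log2(CPM + 10). Sub-clusters were made with scanpy 1.11.5 and leidenalg 0.10.2 from values scaled to 10000 UMIs, 2000 variable genes, 20 principal components, 15 neighbors and a Leiden resolution of 0.5. Intervals were computed with scipy 1.17.1 and numpy 2.4.6 in Python 3.11.15, tables with pandas 2.3.3, plots with matplotlib 3.10.9, and TMM factors with edgeR 4.0.16 in R 4.3.3. The intervals were tested on simulated counts, but the outcome is not given here and no statement above rests on it.

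Alternatives were other UMI minimums, TMM factors, the mean of per-nucleus CPM, nuclei with at least 1000 UMIs, the control sum thinned to the CKO sum, other denominators for the share, other ways to rank leading genes and neighbors, and other Leiden resolutions.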

Additional observations from a re-analysis of the deposited data

How the results depend on the processing

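The number of genes past 2-fold depended on the UMI minimum. With at least 100 UMIs it was 8 higher and 43 lower of 3875 genes, and with at least 10 UMIs 598 higher and 908 lower of 9746 genes, where counting error is larger by construction. With the mean of per-nucleus CPM, which weights shallow nuclei like deep ones, it was 426 higher and 544 lower. The share ratio was 1.33 among nuclei with at least 1000 UMIs, 1.37 without ECs, pericytes and vSMCs and 1.16 among nuclei labelled Glut or GABA. Chosen after seeing the data, it was 0.923 (0.809 to 1.05) among the latter without Glut_5, and the cause was not tested. Leiden resolutions of 0.25 and 1 gave 5 and 11 sub-clusters, as a lower resolution gives fewer by construction. Of the genes recomputed one by one, none past 2-fold changed direction under the alternatives computed for it, although some genes lacked some alternatives. *Gad1*, *Gad2* and *Slc32a1* were among those within 2-fold that moved across 1, *Slc32a1* to 1.12 with the mean of per-nucleus CPM, *Gad2* to 0.989 with nuclei of at least 1000 UMIs and *Gad1* to 1.00 without its top nucleus. Against 162 higher and 294 lower, TMM factors gave 151 and 308 (445 genes shared with the 456). Nuclei with at least 1000 UMIs gave 166 and 287 (430 shared of 453 still compared), and the thinned control sum 193 and 225 (310 shared of 341 still compared). Chosen after seeing the data, leaving out the *Tafa1* sub-cluster gave 146 and 380 (202 shared of 225 still compared), and leaving out the nucleus with the most UMIs of each gene 160 and 289 (384 shared of 391 still compared). Leaving aside the UMI minimums, which cannot change a ratio, 194 of 207 values of single genes under an alternative lay within the gene's interval and 13 did not. Leading genes shared with the 20 numbered 15 to 19, and Glut_1 and GABA_9 were nearest under both other rankings. No paired analysis was possible because each genotype had 1 library of pooled brains. At 1820986 and 1250486 UMIs, a gene with 0 UMIs may have had up to 1.65 CPM in the control and 2.40 CPM in the CKO library.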
